A study of Mus musculus with 6 samples.

Results

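The cathepsin family comprises lysosomal proteases, and 10 of its genes were examined: Ctsa, Ctsb, Ctsc, Ctsd, Ctsf, Ctsh, Ctsk, Ctsl, Ctss and Ctsz. Each was taken by its symbol from the 54347 gene rows of the deposited table, with 1 row per symbol. All 10 passed the filter used for testing, a mean of at least 1 TPM over the libraries, which left 12652 genes. TPM, transcripts of a gene per 1000000 transcripts, corrects for transcript length, so levels can be set against each other between genes. The labels give about 20000000 reads per sample as a nominal figure, and the depth each library reached cannot be read from TPM.

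The libraries came from cultured microglia, the resident macrophages of the brain, of C57BL/6 mice. There were 3 Plcg2-/- libraries, from knockouts of the phospholipase C gamma 2 gene, and 3 Plcg2+/+ libraries from littermates. All came from forebrains of pups aged 2 to 3 days and were grown with GM-CSF, a myeloid growth factor present in every culture (5 ng/mL in the mixed glia, 0.5 ng/mL during a final rest of at least 72 h). A library is named by its genotype followed by its number in the labels (Plcg2-/- 1). Nothing in the labels ties replicates to separate animals or cultures; the p-values therefore reflect only how far these 3 and 3 libraries scatter, and that scatter may be technical.

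Cathepsins are made as inactive precursors, carried to lysosomes largely by mannose-6-phosphate receptors, and activated there by the acid pH and by other proteases. Most members are cysteine proteases, while cathepsin D is an aspartic protease and cathepsin A a serine carboxypeptidase. In macrophages and microglia they degrade engulfed proteins, and cathepsins S and L trim the invariant chain of MHC class II. Cystatins hold cysteine cathepsins in check.

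The promoter windows of 5 members are shown because they belong to the genes with the 3 decreases described below (Ctsl, Ctsk, Ctsd), to the member with the highest fold change (Ctsc) and to the chromosomal neighbour of Ctsk (Ctss). Each runs from 250 bases before to 50 bases after an annotated transcript start, 5′ to 3′ in the direction of the gene (RefSeq, GRCm38.p6). Capitals mark matches to 4 motifs searched on both strands: CACGTG, an E-box bound by the lysosomal regulators TFEB, TFE3 and MITF; TGANTCA, the AP-1 element; GAGGAAGT, an element of the PU.1 type; and GAAA followed by any 2 bases and GAAA again, an interferon-response type element.
Ctsl (chr13:64370471-64370770, minus strand): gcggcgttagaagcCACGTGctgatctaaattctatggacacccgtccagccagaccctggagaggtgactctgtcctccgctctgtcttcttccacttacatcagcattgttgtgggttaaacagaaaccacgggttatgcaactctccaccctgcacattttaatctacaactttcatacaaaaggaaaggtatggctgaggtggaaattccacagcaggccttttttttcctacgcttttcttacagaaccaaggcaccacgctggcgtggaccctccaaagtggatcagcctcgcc
Ctsk (chr3:95498960-95499259, plus strand): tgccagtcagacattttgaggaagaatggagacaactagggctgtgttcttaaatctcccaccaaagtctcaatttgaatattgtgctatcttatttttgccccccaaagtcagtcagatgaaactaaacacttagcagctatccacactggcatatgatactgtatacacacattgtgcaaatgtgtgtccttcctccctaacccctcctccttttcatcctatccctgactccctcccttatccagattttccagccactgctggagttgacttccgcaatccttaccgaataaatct
Ctsd (chr7:142387778-142388077, minus strand): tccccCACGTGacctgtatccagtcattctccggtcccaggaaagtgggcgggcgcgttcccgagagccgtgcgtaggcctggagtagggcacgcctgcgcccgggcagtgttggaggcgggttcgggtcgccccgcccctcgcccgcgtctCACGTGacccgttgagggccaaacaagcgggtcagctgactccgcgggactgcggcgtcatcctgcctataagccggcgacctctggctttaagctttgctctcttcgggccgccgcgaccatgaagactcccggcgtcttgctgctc
Ctsc (chr7:88277835-88278134, plus strand): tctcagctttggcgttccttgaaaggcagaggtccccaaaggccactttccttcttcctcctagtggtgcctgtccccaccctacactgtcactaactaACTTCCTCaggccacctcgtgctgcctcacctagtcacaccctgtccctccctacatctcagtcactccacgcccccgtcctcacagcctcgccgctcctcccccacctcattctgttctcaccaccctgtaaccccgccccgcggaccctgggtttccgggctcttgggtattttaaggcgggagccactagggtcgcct
Ctss (chr3:95526536-95526835, plus strand): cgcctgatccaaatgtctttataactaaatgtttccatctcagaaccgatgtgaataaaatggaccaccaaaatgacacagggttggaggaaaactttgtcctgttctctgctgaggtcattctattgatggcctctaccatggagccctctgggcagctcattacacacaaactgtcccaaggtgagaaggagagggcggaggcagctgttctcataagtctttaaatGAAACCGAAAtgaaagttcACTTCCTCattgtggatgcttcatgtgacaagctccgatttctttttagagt

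The Ctsd window held the E-box letters at 2 places and the Ctsl window at 1, whereas the Ctsk window held none of the 4 motifs. The Ctss window had the interferon-type letters 21 bases before the start and the PU.1-type letters across the start, on the opposite strand and without overlap. The Ctsc window had 1 match of the PU.1 type. RefSeq windows matched 8 of the 10 members by symbol, 9 windows in all because Ctsa has 2; Ctsb and Ctsh had none in the table. The E-box letters stood in 4 of the 9 windows (those of Ctsd, Ctsl, Ctsf and 1 of Ctsa), against 7.15% of all 32851 promoter windows of that length. For the AP-1 element it was 0 of 9 against 7.81%, for the PU.1 type 2 of 9 against 3.20%, and for the interferon type 1 of 9 against 3.44%. The Ctsl window lies on an inner start, 252 bases downstream of the outermost RefSeq start of that gene, and the Ctsa window with the E-box letters lies 901 bases downstream of its outermost one. Gene positions below are from the GENCODE M21 annotation. There the transcript starts of the E-box windows of Ctsd, Ctsl, Ctsf and Ctsa lie 211, 370, 35 and 900 bases inside the gene. A match is a description of the letters and was not tested as a binding site.

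**Figure D1:**
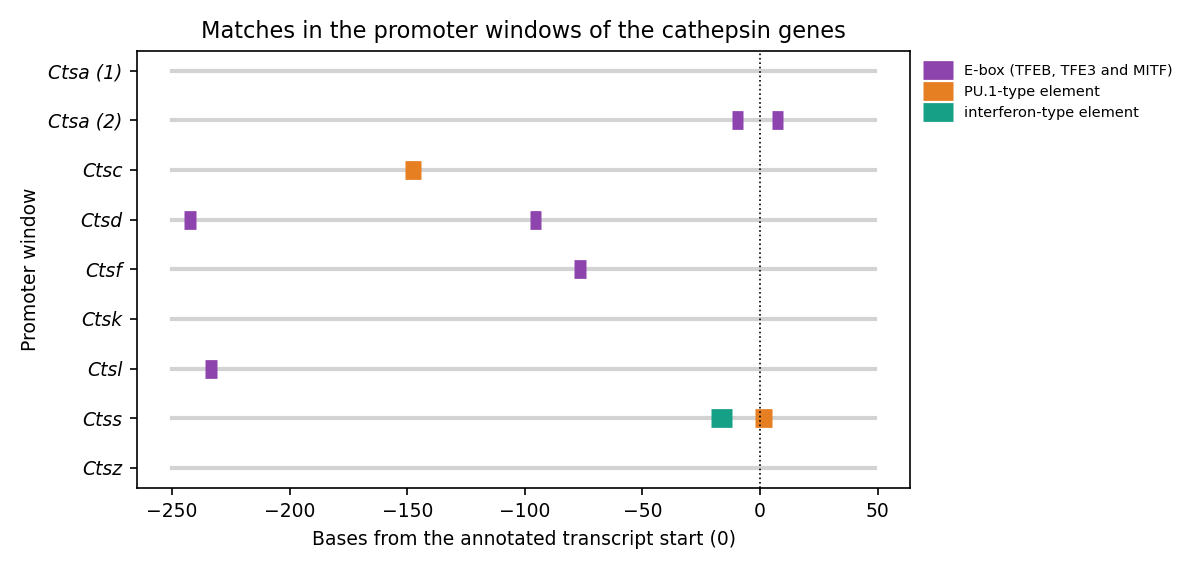
Positions of motif matches in the 9 promoter windows of 8 cathepsin genes, in bases from the annotated transcript start at 0; coloured blocks are matches to the E-box, PU.1-type and interferon-type letters, and grey lines are the windows. Ctsd and the second Ctsa window each have 2 E-box matches, while Ctsk, Ctsz and the first Ctsa window have no block.

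The targeted gene was lower in the knockout libraries. Plcg2 had 16.05, 16.7 and 16.1 TPM in Plcg2-/- and 45.2, 39.7 and 54.9 TPM in Plcg2+/+, a log2 fold change of -1.45 ± 0.14 (SE; limma adjusted p = 0.00141). Which part of the gene was deleted is not given in the labels. Mitochondrially encoded genes took 7.30 ± 2.01% of all TPM in Plcg2-/- and 15.5 ± 1.87% in Plcg2+/+ (SD, n = 3 each). Over all 12652 genes the log2 fold change (Plcg2-/- over Plcg2+/+) had a median of 0.19 in TPM as deposited. It was -0.0045 under median-of-ratios scaling, which divides each library by the median of its gene ratios. Of the 10 microglia and macrophage markers 9 were tested; Aif1 and P2ry12 were higher and Itgam and Cx3cr1 lower in Plcg2-/- (limma adjusted p = 0.0333, 0.0166, 0.000946 and 0.0203). Itgam kept its call in all 18 alternatives. Aif1 lost it when any library but Plcg2-/- 3 was left out (limma adjusted p up to 0.133). The Aif1 call was also lost under median-of-ratios scaling, quantile normalization, a robust prior variance and no filter (limma adjusted p = 0.0616, 0.0651, 0.0669 and 0.0874). P2ry12 and Cx3cr1 lost theirs when Plcg2-/- 1 or 3 or Plcg2+/+ 1 was left out (limma adjusted p up to 0.0786 and 0.0679). With the level of Y-linked genes as a covariate, Aif1, P2ry12 and Cx3cr1 lost their calls (limma adjusted p = 0.0872, 0.0525 and 0.0563). Csf1r averaged 687 ± 89.8 TPM in Plcg2-/- and 580 ± 94.4 TPM in Plcg2+/+ (SD, n = 3 each). Cx3cr1 and Tmem119, markers of microglia in the intact brain, did not exceed 2.92 and 1.47 TPM in any library. Cx3cr1 passed the filter only through Plcg2+/+, with a mean of 2.06 TPM there and 0.244 TPM in Plcg2-/-. Its call therefore rests on values near the filter.

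Loss of Plcg2 went with lower levels of 3 cathepsin genes: Ctsl fell 4.96-fold, Ctsk 3.05-fold and Ctsd 1.70-fold in mean TPM. None of the 10 was higher at the threshold, a limma adjusted p below 0.05 over all 12652 genes tested. Ctsc and Ctsh were nearest to it, with all 3 knockout values above all 3 wild-type values. With the replicate number as a block the members counted 2 higher, Ctsc and Ctsh, and 2 lower, Ctsl and Ctsk (limma adjusted p = 0.0130 for Ctsc, 0.0373 for Ctsh and 0.0793 for Ctsd). With that block 2483 of the 12652 tested genes were higher and 815 lower. Without the block, 5.31% of all tested genes were lower, 15.6% higher and 20.9% called in either direction. At an unadjusted limma p below 0.05 the members counted 2 higher and 3 lower. At that threshold 3604 of the 12652 tested genes were higher and 1155 lower. Values of the genotypes did not overlap for 6 members, 2 with every knockout value above and 4 with every one below; among all tested genes 43.3% did not overlap, 32.4% above and 10.9% below. The 10 genes had a median log2 fold change of -0.28, beside 0.19 for all genes. Under median-of-ratios scaling these medians were -0.49 and -0.0045. Then Ctsl, Ctsk and Ctsd were again lower and 0 members higher, where 7.85% of all genes were lower and 7.71% higher. In bulk RNA, fewer cells of a type and less RNA per cell cannot be told apart.

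**Figure D2:**
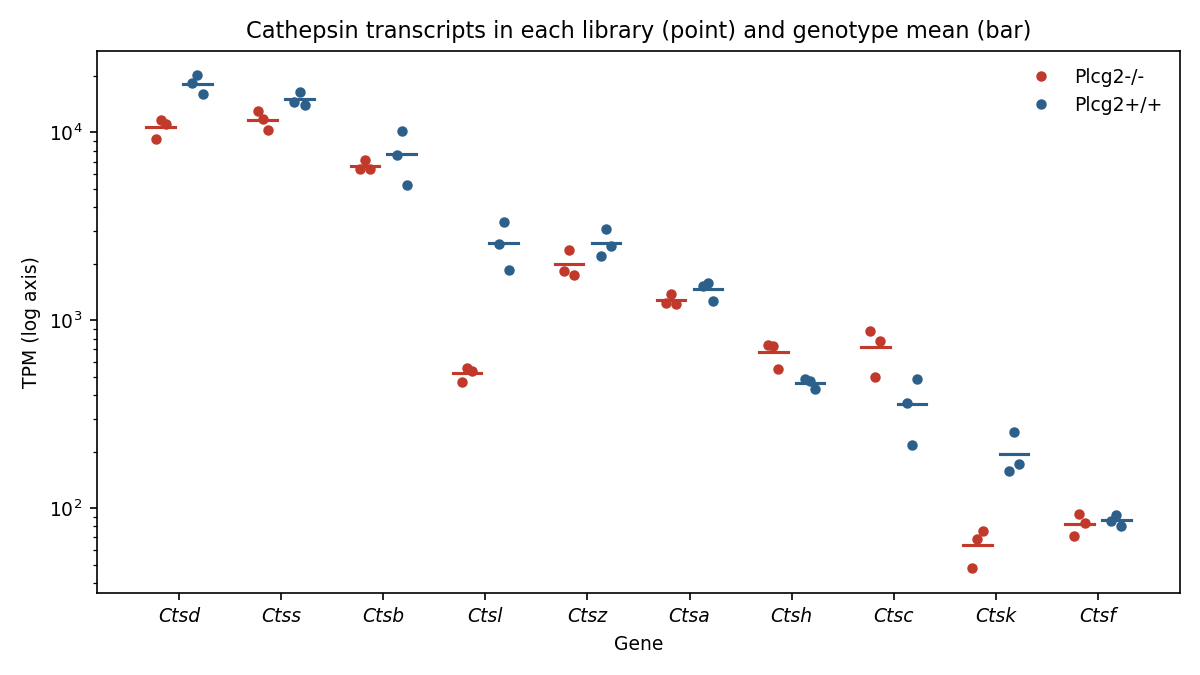
TPM (log axis) of the 10 cathepsin genes in each library, with Plcg2-/- points to the left of Plcg2+/+ points and a bar at each genotype mean (n = 3 each). The points of Ctsl, Ctsk, Ctsd and Ctss lie apart and lower in Plcg2-/-, those of Ctsc and Ctsh lie apart and higher, and those of Ctsb, Ctsz, Ctsa and Ctsf overlap.

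Ctsl encodes cathepsin L, a broad endoprotease of lysosomes. It had 467, 558 and 539 TPM in the Plcg2-/- libraries, against 2551, 3339.6 and 1863 TPM in the Plcg2+/+ libraries. The lowest wild-type library stood well above the highest knockout library. The mean was 521 ± 47.8 TPM in Plcg2-/- and 2585 ± 739 TPM in Plcg2+/+ (SD, n = 3 each). Its log2 fold change was -2.27 ± 0.22 (SE; limma adjusted p = 0.00151). Over the 18 alternative settings it ranged from -2.49 to -2.07, and all of them kept the call. By mean TPM, Ctsl ranked 266 among the 12652 tested genes in Plcg2-/- and 39 in Plcg2+/+. The gene (ENSMUSG00000021477.9) lies on GRCm38 chromosome 13, 64359337 to 64370890, minus strand, in the GENCODE M21 annotation. An antisense gene within it, Gm47123, averaged 0.128 TPM in Plcg2-/- and 3.57 TPM in Plcg2+/+. Transcripts of Gm47123 held 1682 of the 6513 31-base words of Ctsl transcripts, and it did not exceed 6.263 TPM in any library. Since strand-specific counting is not stated, reads from the shared sequence cannot be told apart. The part of Gm47123 in the Ctsl result was not tested.

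Ctsk encodes cathepsin K, the collagen-cleaving protease of osteoclasts. It had 47.9, 68.8 and 75.4 TPM in Plcg2-/- and 158, 255 and 173 TPM in Plcg2+/+. Again no knockout library reached the lowest wild-type value. The mean was 64.0 ± 14.4 TPM in Plcg2-/- and 195 ± 52.1 TPM in Plcg2+/+ (SD, n = 3 each), a log2 fold change of -1.59 ± 0.24 (SE; limma adjusted p = 0.00637). Its call held in all 18 alternatives, with values of -1.87 to -1.38. Ctsk (ENSMUSG00000028111.4; chromosome 3, 95499256 to 95509362, plus strand) is followed on the same strand by Ctss (ENSMUSG00000038642.10; 95526786 to 95556403), with 17423 bases between them.

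Ctss encodes cathepsin S, which stays active outside the acid lysosome and trims the invariant chain in antigen-presenting cells. It had 13062, 11763.5 and 10315 TPM in Plcg2-/- and 14564, 16517 and 13919.6 TPM in Plcg2+/+. All 3 knockout values were below the wild-type values, though its log2 fold change of -0.36 ± 0.19 (SE) did not pass (limma adjusted p = 0.215). Setting the neighbours against each other within a library, which does not depend on scaling, the ratio of Ctss to Ctsk was 273, 171 and 137 in Plcg2-/- and 92.1, 64.8 and 80.7 in Plcg2+/+. The ratios of the genotypes did not overlap, and every knockout ratio was the higher. Since Ctss was not called and Ctsk was, this ratio in large part restates the change of Ctsk. It was chosen after the levels were seen. With 3 against 3 libraries an exact permutation test cannot go below 0.1, and none was run on ratios.

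Ctsd encodes cathepsin D, the main aspartic protease of lysosomes, and was the most abundant member in Plcg2+/+. It had 9236, 11657 and 11113.5 TPM in Plcg2-/- and 18336, 20132 and 16065 TPM in Plcg2+/+, with no overlap. The mean was 10669 ± 1270.4 TPM in Plcg2-/- and 18178 ± 2038 TPM in Plcg2+/+ (SD, n = 3 each). The log2 fold change was -0.77 ± 0.20 (SE; limma adjusted p = 0.0363). This call was lost in 10 of 18 alternatives. The limma adjusted p was 0.0793 with the replicate block, 0.0793 with the level of Y-linked genes as a covariate and 0.570 with no filter on low values. Without any 1 of Plcg2-/- 1, 2 or 3, or of Plcg2+/+ 1 or 2, it was 0.180, 0.101, 0.122, 0.139 and 0.0734. Under quantile normalization, which gives equal ranks equal values, the log2 fold change was -0.0012 (limma adjusted p = 0.998). Ctsd ranked 8 among the tested genes in Plcg2-/- and 7 in Plcg2+/+. The gene (ENSMUSG00000007891.16; chromosome 7, 142375911 to 142388038, minus strand) overlaps Gm49369 on the same strand, and 33.2% of the 31-base words in its transcripts also occur in transcripts of that gene. Gm49369 averaged 5.93 TPM in Plcg2-/- and 8.29 TPM in Plcg2+/+.

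Ctsc encodes cathepsin C, or dipeptidyl peptidase I, which activates serine proteases of immune granules. It had 881, 502 and 776 TPM in Plcg2-/- and 365, 216 and 489 TPM in Plcg2+/+. Library 2 held the lowest value of each genotype, and the lowest knockout value lay just above the highest wild-type value. The mean was 720 ± 196 TPM in Plcg2-/- and 357 ± 137 TPM in Plcg2+/+ (SD, n = 3 each), 2.02-fold higher. Its log2 fold change of 1.05 ± 0.34 (SE) did not pass (limma adjusted p = 0.0667), but did with the replicate block (limma adjusted p = 0.0130) and without Plcg2+/+ 3 (limma adjusted p = 0.0402). Ctsc (ENSMUSG00000030560.17) lies on chromosome 7, 88278085 to 88310888, plus strand.

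Ctsh encodes cathepsin H, an aminopeptidase. It had 742, 734 and 548 TPM in Plcg2-/- and 489, 473 and 431 TPM in Plcg2+/+. These groups did not overlap, and the mean was 674 ± 109.8 TPM in Plcg2-/- and 464 ± 30.0 TPM in Plcg2+/+ (SD, n = 3 each). The log2 fold change of 0.53 ± 0.15 (SE) fell just short of the threshold (limma adjusted p = 0.0519). It passed with the replicate block (limma adjusted p = 0.0373), over genes with a mean of at least 5 TPM (limma adjusted p = 0.0451) and without Plcg2-/- 3 (limma adjusted p = 0.0395). After median-of-ratios scaling it was 0.31 (limma adjusted p = 0.258). Ctsh (ENSMUSG00000032359.14) lies on chromosome 9, 90054152 to 90076089, plus strand.

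The other 4 members did not pass the test. Ctsb, which encodes cathepsin B, an endoprotease that also removes dipeptides, had 6352, 7124 and 6397 TPM in Plcg2-/- and 7616, 10121 and 5276 TPM in Plcg2+/+. Its wild-type values enclosed all the knockout values (log2 fold change -0.16 ± 0.26, SE; limma adjusted p = 0.678). Ctsz, which encodes the carboxypeptidase cathepsin Z, had 1835, 2381 and 1740.4 TPM in Plcg2-/- and 2188, 3046 and 2482 TPM in Plcg2+/+ (log2 fold change -0.37 ± 0.19, SE; limma adjusted p = 0.203). Only Plcg2-/- 2 reached into the wild-type range. Ctsa, which encodes the protective protein that stabilises lysosomal sialidase and beta-galactosidase, averaged 1277 ± 85.8 TPM in Plcg2-/- and 1462 ± 172 TPM in Plcg2+/+ (SD, n = 3 each; log2 fold change -0.19 ± 0.14, SE; limma adjusted p = 0.368). Ctsf, which encodes the cysteine protease cathepsin F, averaged 82.4 ± 11.2 TPM in Plcg2-/- and 86.1 ± 5.81 TPM in Plcg2+/+ (SD, n = 3 each; log2 fold change -0.07 ± 0.13, SE; limma adjusted p = 0.735). These genes lie on chromosome 14 (Ctsb, 63122462 to 63145923), chromosome 2 (Ctsz, 174427493 to 174439039; Ctsa, 164832873 to 164841032) and chromosome 19 (Ctsf, 4855130 to 4860918).

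**Figure D3:**
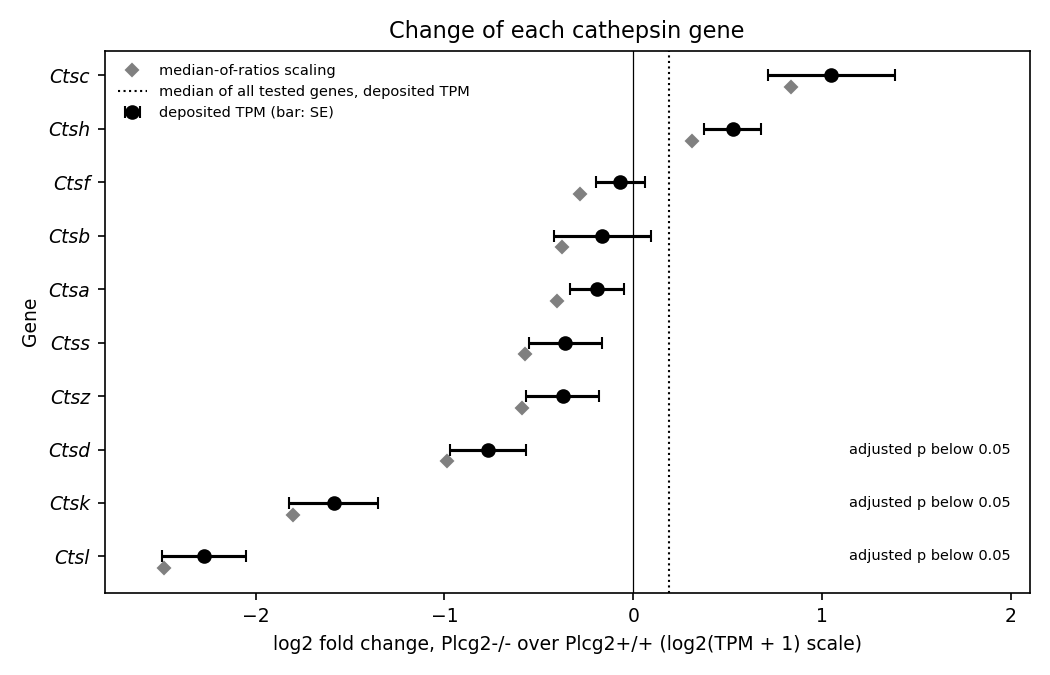
Log2 fold change of each cathepsin gene, Plcg2-/- over Plcg2+/+, of log2(TPM + 1); black points with SE bars are deposited TPM, grey diamonds are the values after median-of-ratios scaling, and the dotted line is the median of all tested genes at 0.19. Ctsl at -2.27, Ctsk at -1.59 and Ctsd at -0.77 are the 3 genes with an adjusted p below 0.05, and every diamond lies to the left of its point.

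No 31-base word, on either strand, was shared between transcripts of different members. Transcripts of Ctsf, Ctsk, Ctss and Ctsz shared none with any other gene of the annotation. The share was 28.2% for Ctsl, mostly with the antisense Gm47123. It was 14.6% for Ctsa, with the overlapping genes Pltp and Neurl2 first, and 13.0% for Ctsb, mostly with the overlapping gene Fdft1. Pltp, which overlaps Ctsa on the opposite strand, averaged 78.9 TPM in Plcg2-/- and 66.6 TPM in Plcg2+/+. Deposited TPM do not show how reads of shared sequence were divided.

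The order of levels changed with genotype. In Plcg2-/- the means ran Ctss, Ctsd, Ctsb, Ctsz, Ctsa, Ctsc, Ctsh, Ctsl, Ctsf and Ctsk. In Plcg2+/+ they ran Ctsd, Ctss, Ctsb, Ctsl, Ctsz, Ctsa, Ctsh, Ctsc, Ctsk and Ctsf. In Plcg2-/- the ranges of 4 neighbouring pairs overlapped. Of these, Ctss and Ctsd, and Ctsc and Ctsh, changed places between libraries, while Ctsh stood above Ctsl and Ctsf above Ctsk in all 3. In Plcg2+/+ the ranges of 4 pairs overlapped too. Of these, Ctsl and Ctsz, Ctsh and Ctsc, and Ctsc and Ctsk changed places, while Ctsd stood above Ctss in all 3 libraries. The highest mean was 183 times the lowest in Plcg2-/- and 211 times in Plcg2+/+. Ctsl ranked 8, 7 and 8 of the 10 in the Plcg2-/- libraries and 4, 4 and 5 in the Plcg2+/+ libraries.

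Together the 10 genes took 3.39, 3.63 and 3.28% of all TPM in Plcg2-/- and 4.79, 5.58 and 4.20% in Plcg2+/+. No knockout library reached the wild-type range. Ctsd made up 52.7% of the difference in summed TPM, Ctss 23.1% and Ctsl 14.5%. Within the family total, which is independent of library scaling, Ctsl took 1.38, 1.54 and 1.64% in Plcg2-/- and 5.33, 5.99 and 4.43% in Plcg2+/+. Ctsd took 31.1 ± 3.46% in Plcg2-/- and 37.5 ± 1.25% in Plcg2+/+, and Ctsb 19.3 ± 0.500% in Plcg2-/- and 15.5 ± 2.82% in Plcg2+/+ (SD, n = 3 each). The shares of Ctsc, 2.12 ± 0.645% in Plcg2-/- and 0.771 ± 0.389% in Plcg2+/+, and of Ctsh, 1.96 ± 0.264% in Plcg2-/- and 0.965 ± 0.101% in Plcg2+/+ (SD, n = 3 each), were higher in every knockout library than in any wild-type library. So were those of Ctsa, Ctsb and Ctsf. The shares of Ctsd, Ctsk and Ctsl were lower in every knockout library than in any wild-type library. Those of Ctss and Ctsz overlapped. As parts of a fixed sum, these shares cannot move independently of each other.

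**Figure D4:**
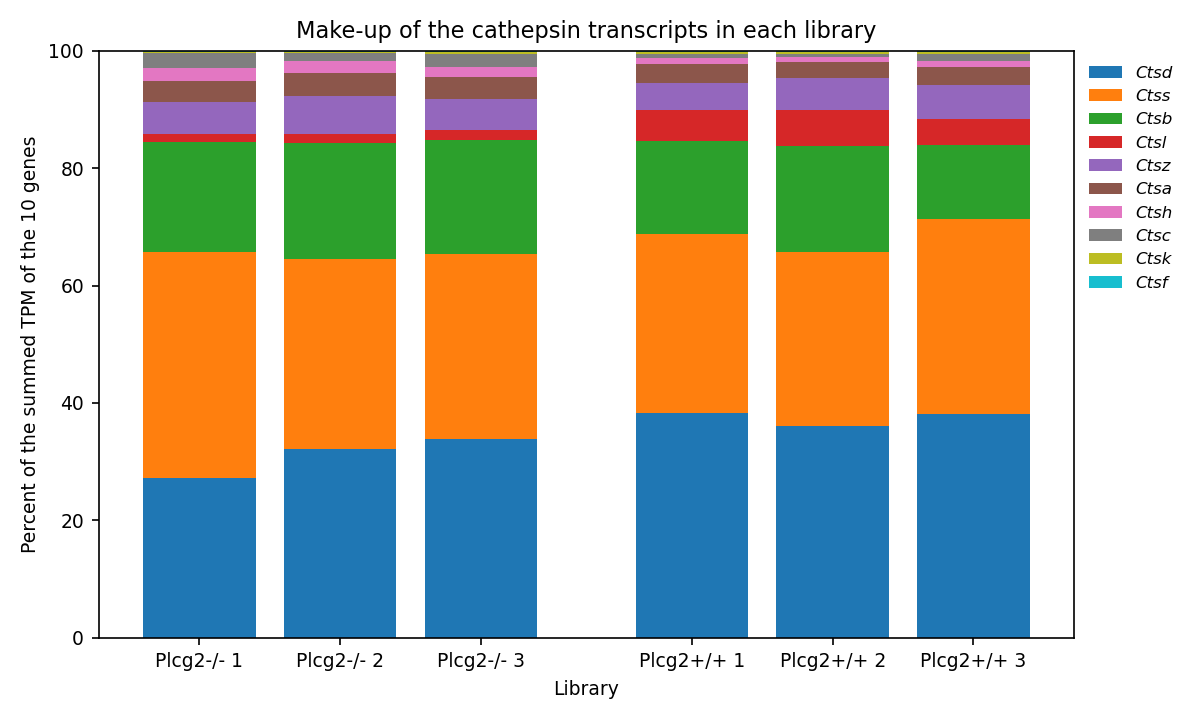
Percent of the summed TPM of the 10 cathepsin genes taken by each gene, as 1 stacked bar per library, with the Plcg2-/- libraries left of the Plcg2+/+ libraries. Ctsd, Ctss and Ctsb fill most of every bar, and the Ctsl band is 1.38 to 1.64% in Plcg2-/- against 4.43 to 5.99% in Plcg2+/+.

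Ratios between the cysteine proteases showed the same contrast without reference to other genes. Ctsb was 13.6, 12.8 and 11.9 times as abundant as Ctsl in Plcg2-/-, against 2.99, 3.03 and 2.83 times in Plcg2+/+. The spread within a genotype was small beside the gap between them. The ratio of Ctsc to Ctsl was 1.89, 0.899 and 1.44 in Plcg2-/- and 0.143, 0.0646 and 0.263 in Plcg2+/+. Ctsh to Ctsl gave 1.59, 1.31 and 1.02 in Plcg2-/- and 0.192, 0.142 and 0.231 in Plcg2+/+. In Plcg2-/- cells the transcript of cathepsin H was thus at least level with that of cathepsin L in every library. All of these ratios have Ctsl, the most changed member, as denominator, so in large part they restate its change. They were chosen after the levels were seen and carry no test.

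Among replicates, Plcg2-/- 2 was the highest knockout library for 6 of the members (Ctsa, Ctsb, Ctsd, Ctsf, Ctsl, Ctsz) and Plcg2+/+ 2 the highest wild-type library for 8 (all but Ctsc and Ctsh). In both genotypes library 2 was the lowest for Ctsc. Plcg2+/+ 3 was the lowest wild-type library for 7 members. The profiles of Ctsa and Ctsf over the 6 libraries were the closest pair of members, with a root mean square difference of 0.12 on the log2 scale after centring each gene on its own mean. Those of Ctsc and Ctsl were the farthest apart at 1.79.

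By the same measure, the 9262 other tested genes with a mean of at least 5 TPM were searched for profiles like those of the 3 members with the largest changes. Nearest to Ctsl were the creatine transporter gene Slc6a8 (0.074), the B7-family gene Cd276 (0.13) and the secretory kinase gene Fam20c (0.14). Slc6a8 had 23.5, 29.6 and 25.1 TPM in Plcg2-/- and averaged 135 ± 40.6 TPM in Plcg2+/+ (SD, n = 3). Nearest to Ctsk were Ifi27 (0.086), Alas1, which encodes the first enzyme of heme synthesis (0.12), and Spsb4 (0.14). Nearest to Ctsc were Prr5l (0.094), the kinase gene Stk17b (0.099) and Sh3bgrl (0.11). The calls of these last 3 were marginal, with limma adjusted p of 0.0484, 0.0445 and 0.0493. Each likeness is over 6 libraries that form 2 genotypes and is a description only.

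Of the other cathepsin genes only Ctso was tested. It had 20.6, 17.5 and 23.2 TPM in Plcg2-/- and 19.2, 20.8 and 17.1 TPM in Plcg2+/+, values that overlapped (log2 fold change 0.09 ± 0.14, SE; limma adjusted p = 0.662). The sign turned under median-of-ratios scaling (-0.11). Of the 13 genes in this list, 8 were at 0 TPM in all 6 libraries, among them the placental members Ctsj, Ctsm, Ctsq and Ctsr. The aspartic protease gene Ctse stayed below the filter, averaging 0.991 ± 0.0599 TPM in Plcg2-/- and 0.816 ± 0.296 TPM in Plcg2+/+ (SD, n = 3 each).

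Genes of cathepsin inhibitors, a list of 14 of which 9 were tested, showed no call. By limma 0 were higher and 0 lower, where 15.6% of all tested genes were higher and 5.31% lower. At an unadjusted limma p below 0.05 the counts were 1 higher and 0 lower. Of all 12652 tested genes 3604 were then higher and 1155 lower. The 1 inhibitor gene was Serpina3g, a serpin gene named after its values were seen. It had 3.88, 1.09 and 1.04 TPM in Plcg2-/- and 0.155, 0 and 0.418 TPM in Plcg2+/+, low values that did not overlap (log2 fold change 1.22 ± 0.39, SE; limma adjusted p = 0.0673). Serpina3g passed the filter only through Plcg2-/-, with a mean of 2.00 TPM there and 0.191 TPM in Plcg2+/+. Its place among the tested genes was thus set by the genotype where it is high. Cst3, which encodes the secreted inhibitor cystatin C, had 1896, 1995 and 1392 TPM in Plcg2-/- and 1423, 1862 and 1273 TPM in Plcg2+/+ (limma adjusted p = 0.489). Cstb, which encodes the cytosolic inhibitor cystatin B, averaged 1352 ± 57.7 TPM in Plcg2-/- and 1217 ± 134 TPM in Plcg2+/+ (SD, n = 3 each; limma adjusted p = 0.426). Ranges of both genes overlapped between genotypes. The serpin gene Serpinb6a (limma adjusted p = 0.287) and Ctla2b, whose product resembles a cathepsin propeptide (limma adjusted p = 0.213), did not pass either. For Cst3, Cstb and Serpinb6a the log2 fold change was 0.21, 0.16 and 0.21 as deposited, but -0.0021, -0.060 and -0.0026 under median-of-ratios scaling. With the replicate block Ctla2b was higher (limma adjusted p = 0.0108). The list then counted 1 higher, beside 2483 higher among all 12652 tested genes. The 9 genes had a median log2 fold change of 0.21, beside 0.19 for all genes. Cst3 was 4.06, 3.58 and 2.58 times as abundant as Ctsl in Plcg2-/- and 0.558, 0.558 and 0.683 times in Plcg2+/+. Since Cst3 was not called and Ctsl was the most changed member, this ratio mostly restates the change of Ctsl. It was chosen after the levels were seen and carries no test.

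Of 19 sorting and partner genes, all tested, 3 were higher and 1 lower, shares close to the 15.6% higher and 5.31% lower among all tested genes. Their median log2 fold change was 0.13, beside 0.19 for all genes. Cd74, which encodes the invariant chain that cathepsin S trims, rose to 1169, 1035 and 677 TPM in Plcg2-/-, against 243, 201 and 177 TPM in Plcg2+/+ (log2 fold change 2.18 ± 0.23, SE; limma adjusted p = 0.00178). Igf2r, which encodes the cation-independent mannose-6-phosphate receptor, fell to 10.9, 13.4 and 14.1 TPM in Plcg2-/-, against 24.3, 38.6 and 20.7 TPM in Plcg2+/+ (log2 fold change -1.03 ± 0.23, SE; limma adjusted p = 0.0244). M6pr, which encodes the cation-dependent mannose-6-phosphate receptor and was named after its values were seen, was the more abundant receptor gene and was not called. It had 236, 212 and 243 TPM in Plcg2-/- and 236, 254 and 249 TPM in Plcg2+/+, values that overlapped (log2 fold change -0.10 ± 0.11, SE; limma adjusted p = 0.535). Igf2r lost its call in 6 of 18 alternatives. Its limma adjusted p was 0.106, 0.0562 and 0.0685 when Plcg2-/- 1, 2 or 3 was left out, and 0.0686 when Plcg2+/+ 1 was.

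Vps35, a subunit gene of the retromer that recycles sorting receptors, averaged 102 ± 14.9 TPM in Plcg2-/- and 65.6 ± 2.62 TPM in Plcg2+/+ (SD, n = 3 each; limma adjusted p = 0.0213). Gga1, an adaptor gene for mannose-6-phosphate receptors, averaged 65.5 ± 0.311 TPM in Plcg2-/- and 49.5 ± 4.17 TPM in Plcg2+/+ (SD, n = 3 each; limma adjusted p = 0.0359). Both calls depended on scale, since after median-of-ratios scaling the limma adjusted p was 0.0541 for Vps35 and 0.212 for Gga1. Gga1 lost its call when any library but Plcg2+/+ 3 was left out (limma adjusted p up to 0.112). Vps35 lost it when Plcg2-/- 1 or 3 or Plcg2+/+ 1 or 2 was left out (limma adjusted p up to 0.0903). Lgmn, which encodes the asparaginyl protease legumain that processes cathepsins, had 1349.7, 1849.8 and 1409 TPM in Plcg2-/-, below all of the 2339.8, 2702.5 and 1857 TPM in Plcg2+/+, and missed the threshold (limma adjusted p = 0.0811). For the E-box factor genes Tfeb, Tfe3 and Mitf the limma adjusted p was 0.458, 0.162 and 0.244. These last 4 genes were named after their values were seen.

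**Figure D5:**
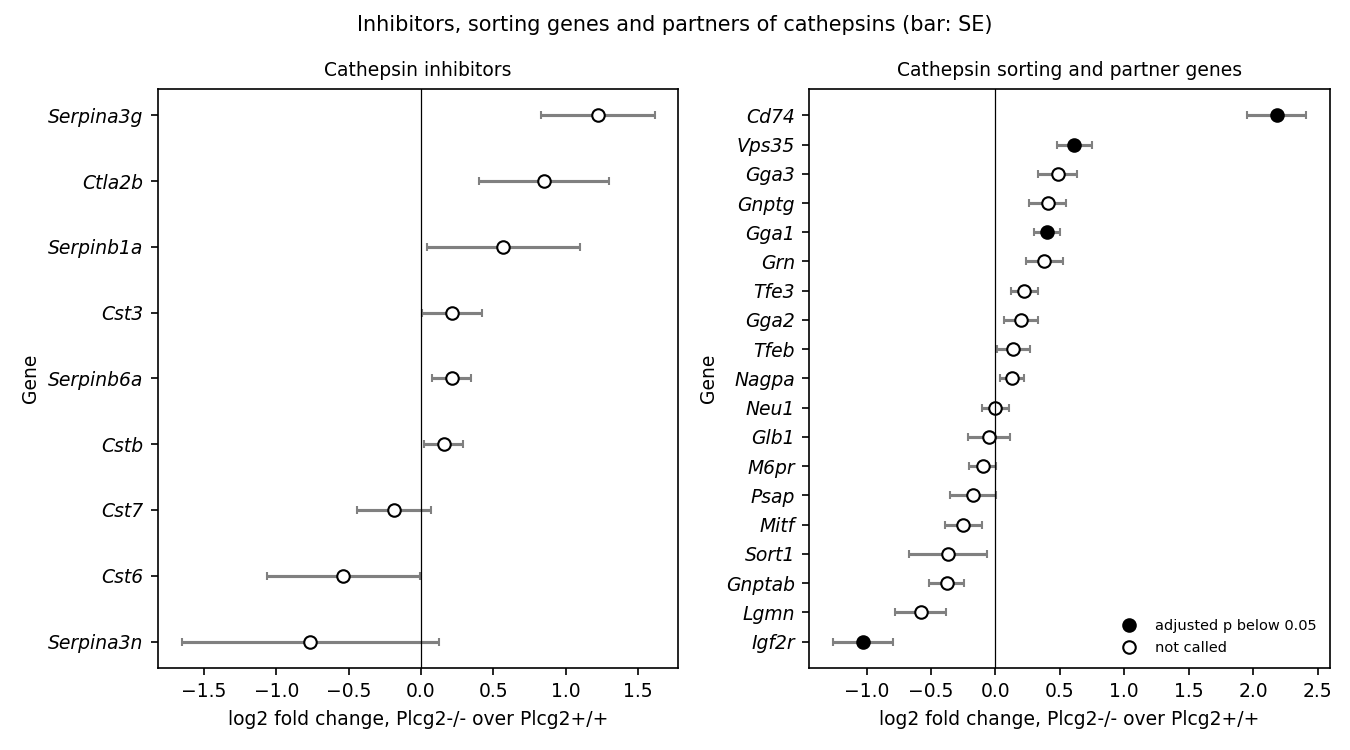
Log2 fold change with SE, Plcg2-/- over Plcg2+/+, of the 9 tested cathepsin inhibitor genes (left) and the 19 sorting and partner genes (right); filled points have an adjusted p below 0.05. Only Cd74, Vps35, Gga1 and Igf2r are filled, and Igf2r at -1.03 is the lowest of the right panel.

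Markers of other cell types summed to far less than those of microglia and macrophages. Summed levels ran from 43.0 to 59.6 TPM in Plcg2-/- and 30.4 to 60.5 TPM in Plcg2+/+ for 8 astrocyte markers, of which 4 were tested. They ran from 47.6 to 84.9 TPM in Plcg2-/- and 50.05 to 116 TPM in Plcg2+/+ for 8 oligodendrocyte lineage markers, from 4.27 to 9.84 TPM in Plcg2-/- and 3.08 to 10.9 TPM in Plcg2+/+ for 6 neuron markers, and from 0.451 to 3.07 TPM in Plcg2-/- and 0.772 to 1.94 TPM in Plcg2+/+ for 6 fibroblast and mural markers. These ranges overlapped between genotypes. Single markers still differed. Aldh1l1, an astrocyte marker, averaged 28.3 ± 8.65 TPM in Plcg2-/- and 12.3 ± 3.43 TPM in Plcg2+/+ (SD, n = 3 each; limma adjusted p = 0.0282). Its call was lost in 6 of 18 alternatives, with a limma adjusted p of 0.106 and 0.0941 when Plcg2-/- 1 or 3 was left out and 0.0938 and 0.0929 when Plcg2+/+ 1 or 2 was. Cspg4, a marker of oligodendrocyte precursors, averaged 0.471 ± 0.309 TPM in Plcg2-/- and 9.62 ± 3.24 TPM in Plcg2+/+ (SD, n = 3 each; limma adjusted p = 0.00141). It passed the filter only through Plcg2+/+. The 5 endothelial markers summed to 16.9 to 25.3 TPM in Plcg2-/- and 5.62 to 8.02 TPM in Plcg2+/+, most of it Kdr, which was called higher (limma adjusted p = 0.00477). The summed microglia and macrophage markers ran from 4235 to 5988 TPM in Plcg2-/- and 3842 to 5688 TPM in Plcg2+/+. The 6 granulocyte and lymphocyte markers summed to 24.1 to 45.7 TPM in Plcg2-/- and 17.4 to 74.7 TPM in Plcg2+/+. Among them Ly6g, Elane and Cd3e, genes of granulocytes and lymphocytes, were at 0 in all 6 libraries. The part of these markers and of the mitochondrial share in the cathepsin results was not tested, beyond a rescaling without mitochondrially encoded genes, under which Ctsl, Ctsk and Ctsd kept their calls.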

How the data were processed

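PolyA-selected RNA of 6 libraries was read as 150-bp paired ends, per the labels' protocols. What the authors deposited is a gene by library matrix in TPM. Those protocols give about 20000000 reads per sample, but TPM has a fixed total and does not keep the depth each library reached, so neither counting intervals nor floors can be given. The submitters' processing notes name Salmon 1.3.0, R 4.0.4, DESeq2 1.30.1 and the build GRCm38.p6; annotation release, strand setting and the step to gene values: not given in the sources used here. Of 54347 rows, 53307 carried an identifier of GENCODE M21, which gave positions.

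Genes averaging 1 TPM or more were tested on the log2(TPM + 1) scale, which understates changes of low genes, by two-sided limma tests (limma 3.58.1, R 4.3.3; prior variance following the mean, 4 residual and 2.97 prior degrees of freedom), Plcg2-/- against Plcg2+/+. P-values were adjusted by Benjamini-Hochberg over all genes tested. SE is the moderated one. Tables were handled with Python 3.11.15 and pandas 2.3.3, and plots drawn with matplotlib 3.10.9. The test was checked on simulated data with independent normal errors. These data held no replicate pairs and no difference in mitochondrial share, so the check does not cover either. Members and gene lists were chosen with earlier results of these data known. The text names all 10 members, Plcg2, the called genes of each companion list (where under 4, also the most abundant tested ones up to 4), and the 3 nearest profiles of the 3 most changed members; other genes named are said to be chosen afterwards or mark cells, overlap a member or fall outside the filter.

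Replicate numbers 1 to 3 come from the titles. Same-numbered libraries deviated from their genotype means together (correlation across genes 0.295, 0.193 and 0.147, each above 0.1), and on this ground the numbers count as pairs. The reported test has no block and so ignores these pairs, which the labels do not state. A test with the block is an alternative. In it the members counted 2 higher and 2 lower, in place of 0 higher and 3 lower. Others were pseudocounts of 0.1 and 0.5, other filters, scalings and prior variances, a Y-linked covariate and leaving out each library.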

Additional observations from a re-analysis of the deposited data

How the results depend on the processing

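Ctsl and Ctsk kept their direction and call in all 18 alternatives, while Ctsd lost its call in 10. The members counted 3 lower as reported and 2 with the replicate block. They counted 0 higher as reported, 2 with the replicate block, 1 with the block and median-of-ratios scaling, 1 over genes with a mean of at least 5 TPM, and 0 to 1 without any 1 library. The block changed the calls of Ctsc, Ctsh, Ctsd and Ctla2b among the members and companion genes; inhibitors then counted 1 higher, also with scaling.

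Over all genes tested the counts, higher and lower, were 1971 and 672, and 2483 and 815 with the replicate block. Higher genes numbered 1226 with no filter, 975 with median-of-ratios scaling, 959 with quantile normalization, 1223 without mitochondrially encoded genes, 1104 with the block and median-of-ratios scaling and 842 with the Y-linked covariate. Lower genes numbered 1031 with quantile normalization, 1127 with the block and scaling and 375 with the Y-linked covariate. Without any 1 library the ranges were 559 to 2106 higher and 276 to 644 lower.

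Sorting and partner genes counted 3 higher, but 1 with median-of-ratios scaling, with or without the block, and 1 with the Y-linked covariate. They counted 1 lower, but 0 with no filter, 2 with median-of-ratios scaling, 2 with quantile normalization, 3 with the block and scaling and 0 with the covariate. Without any 1 library the ranges were 1 to 3 higher and 0 to 2 lower.

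Some genes not called as reported changed sign. Ctsb became 0.48 and Ctss 0.30 under quantile normalization, and Ctsb ranged from -0.41 to 0.061 and Ctsf from -0.16 to 0.035 without any 1 library. Ctso was -0.11 after median-of-ratios scaling, with or without the block, -0.14 after quantile normalization and -0.034 without mitochondrially encoded genes. With median-of-ratios scaling, with or without the block, Cst3 was -0.0021, Cstb -0.060 and Serpinb6a -0.0026, and Cstb was -0.058 after quantile normalization. The causes were not tested. The summed TPM of the members, Plcg2-/- minus Plcg2+/+, was -14239.4 as deposited and -17501.1 to -10633.7 without any 1 library; pseudocount, filter and prior do not enter it, and it was not run with the block, the covariate or quantile normalization. TPM hold no read counts, so counting error could not be set beside any value.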

Other observations

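The 3 called members have 6 protein-coding neighbours, the nearest non-overlapping gene on either side of each. In mean TPM, Cdk20, Syt8, Ifitm10 and Ctss were lower in Plcg2-/-, while Aaed1 and Arnt were higher. Cdk20 and Syt8 were called lower, as were 5.31% of all tested genes. Beside Ctsl, Cdk20 averaged 4.99 TPM in Plcg2-/- and 17.3 TPM in Plcg2+/+ (log2 fold change -1.62 ± 0.17, SE; limma adjusted p = 0.00189). On its other side Aaed1 averaged 18.4 TPM in Plcg2-/- and 17.0 TPM in Plcg2+/+. Beside Ctsd, Syt8 averaged 3.35 TPM in Plcg2-/- and 9.98 TPM in Plcg2+/+ (log2 fold change -1.33 ± 0.26, SE; limma adjusted p = 0.0150), and Ifitm10 averaged 0.369 TPM in Plcg2-/- and 1.02 TPM in Plcg2+/+, under the filter. Beside Ctsk, Arnt averaged 21.8 TPM in Plcg2-/- and 16.2 TPM in Plcg2+/+ (log2 fold change 0.40 ± 0.14, SE; limma adjusted p = 0.0859), and Ctss is described above. These neighbours were looked at after the members' values were known.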
